A study of Homo sapiens with 6 samples.

Results

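The enzymes of the urea cycle and of arginine and proline metabolism were examined in MDA-MB-231 cells treated with Parishin B (PB). Members were taken as the rows whose gene symbol was CPS1, ASS1, ASL, ARG2, OAT, ALDH18A1, PYCR1, PYCR3 or PRODH, and each symbol matched 1 row, giving 9 of the 61806 genes in the deposited table. The study asked how PB, a natural compound screened as an inhibitor of the pseudokinase TRIB3, changes the transcriptome of breast cancer cells. MDA-MB-231 is an established human triple-negative breast cancer line. All 6 samples are given as cultures of this line, with no genetic change named in the labels. The 3 control samples (Control-1 to Control-3) carried no PB, and the vehicle given to them is not stated for the RNA-seq. The 3 PB samples (ParishinB-1 to ParishinB-3) received 20 μM PB for 24 h, a dose and time given by the study's text and not by the labels. Nothing in the sources used here says that samples of a group came from separate cultures, so the errors below measure the spread between these samples, which may be technical.

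The urea cycle turns ammonia into urea. CPS1 makes carbamoyl phosphate from ammonia in mitochondria, ASS1 and ASL then build arginine by way of argininosuccinate, and arginase (ARG2 in mitochondria) splits arginine into urea and ornithine. Ornithine is linked to proline by OAT, which interconverts ornithine and pyrroline-5-carboxylate. ALDH18A1 makes the same intermediate from glutamate, the PYCR reductases turn it into proline, and PRODH starts the breakdown of proline. The complete cycle is a feature of liver, whereas many tumour cells use single steps of it, and genes of amino acid synthesis are known targets of the transcription factor ATF4.

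Total counts per sample lay between 15681655 and 21986948, and a count of 3 corresponded to 0.136 to 0.191 CPM (counts scaled by the total of the sample), which covers counting error only. edgeR's quasi-likelihood test with Benjamini-Hochberg adjustment called 2925 of 24200 tested genes (12.1%), where a call needed an adjusted p not above 0.05 and a log2 fold change that reached 1 upward or downward. Of these, 1296 (5.36% of the tested genes) were higher and 1629 (6.73%) lower with PB. With library size alone in place of TMM (edgeR's trimmed mean scaling) the split was 1809 higher and 1336 lower, and the median log2 fold change of all genes moved from 0.011 to 0.138. Of 8 mesenchymal markers of the line, all were tested and passed on the adjusted p alone (edgeR), beside 50.2% of all tested genes. They were 7 lower and 1 higher with PB. VIM, the most abundant, stood at 603 FPKM (fragments relative to the length of a gene's exons and to sequencing depth) in control samples and 635 FPKM with PB (log2 fold change -0.06 after TMM scaling), whereas S100A4 fell from 19.1 to 1.20 FPKM (-4.11). Control samples also held counts of genes that mark luminal epithelium, and PB samples kept some of them. Of 12 such markers, 7 were called lower and 1 (ESRP1) higher, beside 6.73% and 5.36% of all tested genes, and the others were not called. KRT18 had 14391, 14751 and 19473 counts in control samples and 5792, 5774 and 7149 counts with PB. ESRP1 had 32, 32 and 44 counts in control samples and 90, 107 and 138 counts with PB. CDH1, the epithelial cadherin, had 428, 387 and 522 counts in control samples and 2, 0 and 2 counts with PB. Whether control and PB samples held the same make-up of cells was not tested.

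Among the 9 enzymes, CPS1 was 36.7-fold lower with PB by mean FPKM and PYCR1 was 2.33-fold higher, while the other members moved by less than a log2 fold change of 1 or lay under the filter on low values. Filtering at a mean FPKM of 0.1 left 8 of the 9 in the fit and removed PRODH. By the rule above 2 of these 8 were called, beside 12.1% of all tested genes. They were 1 higher, beside 5.36% of all tested genes, and 1 lower, beside 6.73%. Without the fold change line, 6 of the 8 passed on the adjusted p alone (edgeR), beside 50.2% of all tested genes. They were 2 higher, beside 24.1%, and 4 lower, beside 26.1%. FPKM values of control and PB did not overlap for 7 of the 8, beside 55.6% of all tested genes. The median log2 fold change over the 8 was -0.15, against 0.011 over all tested genes. The members were chosen by their pathway and on the difference between these control and PB values, which was already known, CPS1 for its loss and the proline enzymes as ATF4 targets. Their values are therefore a description and carry no test.

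**Figure D1:**
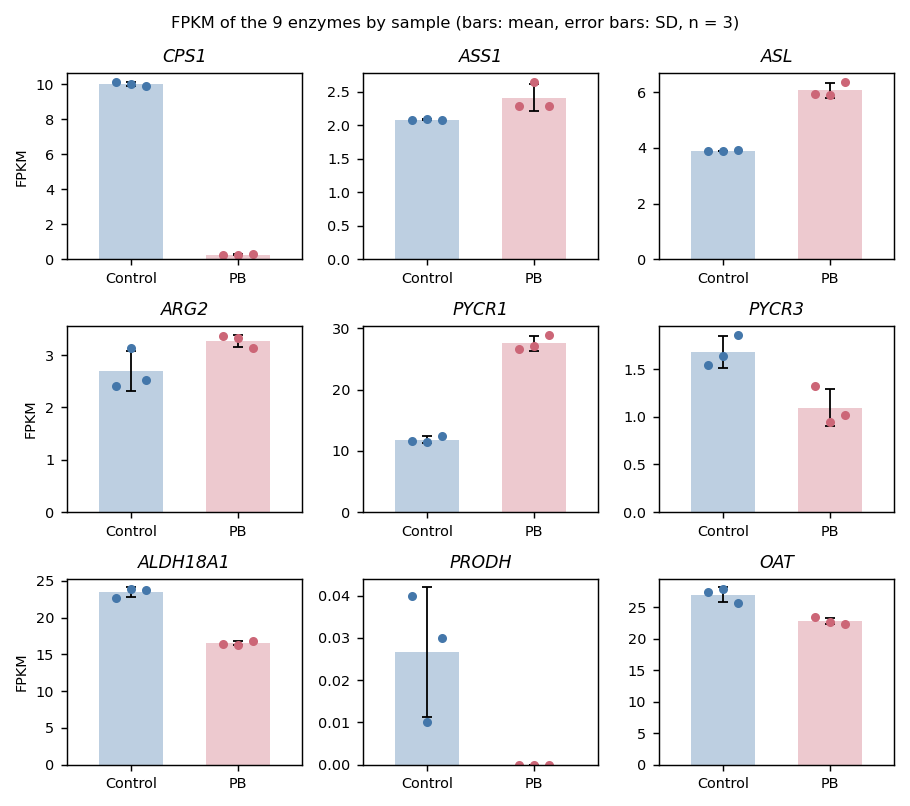
FPKM of the 9 enzymes in control and PB samples. Each panel has its own FPKM axis from 0, points are samples, bars are means and error bars are SD (n = 3). CPS1 stands at 10.02 FPKM on average in control and at 0.273 FPKM with PB, PYCR1 stands at 11.8 against 27.6 FPKM, ARG2 values meet at 3.14 FPKM, and PRODH is listed at 0 in all PB samples.

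RefSeq promoter windows (GRCh38.p14, 250 bases before to 50 after a start) were in the table used here for 6 of the 9 members, with 9 windows in all. PYCR1, PYCR3 and PRODH had no entry. The bases before a start are shown for the gene with the largest difference (CPS1), for the first enzyme of proline synthesis (ALDH18A1) and for ARG2, and 30 bases are shown for GOT1, a gene of the glutamate supply described below. Capitals mark the letters of a searched motif. CPS1 has 3 windows in the table, and the one shown lies before a start within the gene (chr2:210593105-210593354, plus strand). Counts per gene cannot tell which start was used. ALDH18A1 is shown at chr10:95656712-95656961 (minus strand), ARG2 at chr14:67619670-67619797 (plus strand) and GOT1 at chr10:99430804-99430833 (minus strand).
CPS1: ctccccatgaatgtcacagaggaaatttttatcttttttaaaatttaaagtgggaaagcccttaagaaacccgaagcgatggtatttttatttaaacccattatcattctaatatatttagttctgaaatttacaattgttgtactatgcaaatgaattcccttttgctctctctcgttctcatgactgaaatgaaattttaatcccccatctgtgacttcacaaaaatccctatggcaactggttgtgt
ALDH18A1: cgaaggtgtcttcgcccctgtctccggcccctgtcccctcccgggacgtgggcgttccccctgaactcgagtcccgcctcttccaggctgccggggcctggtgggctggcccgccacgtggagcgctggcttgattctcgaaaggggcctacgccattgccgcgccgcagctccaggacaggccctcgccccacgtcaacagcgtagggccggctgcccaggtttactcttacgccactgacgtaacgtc
ARG2: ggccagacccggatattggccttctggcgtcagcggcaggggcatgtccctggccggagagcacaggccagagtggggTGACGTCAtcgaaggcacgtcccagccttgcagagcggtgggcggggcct
GOT1: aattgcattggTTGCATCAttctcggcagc
The letters TGATGNAA, the core of the element bound by C/EBP and ATF factors, were searched on both strands. They were in 0 of the 9 member windows and in 3.62% of the 35116 windows in the table. Of 36 genes of the pathway lists described below that had a window, 1 held the letters, which was GOT1, on the reverse strand with the match beginning at base -198 from the start. The letters TGACGTCA, the cyclic AMP response element, were added after the sequences had been seen. They were in 1.85% of all windows and in 1 of the 9 member windows, that of ARG2. The match shown begins at base -172 and reads the same on both strands. These matches describe letters in a window and carry no statement on binding. Against ALDH18A1 with a GC content of 68.8%, the CPS1 stretch had 33.6%.

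CPS1 (ENSG00000021826, chr2:210477682-210679107, plus strand, hg38), the entry enzyme of the cycle, had FPKM values of 10.11, 10.03 and 9.91 in control samples. With PB they were 0.28, 0.24 and 0.30. All control values lay far above all PB values, and the control samples differed from each other by about 1.01% (coefficient of variation). The mean FPKM was 10.02 ± 0.101 in control and 0.273 ± 0.0306 with PB (SD, n = 3), so that 2.73% of the control level was left. On the edgeR scale the log2 fold change of CPS1 was -5.32 with a standard error of 0.073. In reads, CPS1 had 1817, 1894 and 2400 counts in control and 49, 42 and 62 with PB. The gene was thus still detected in every PB sample, above the 3 counts taken as the floor. Among the tested genes, 174 had a lower log2 fold change. In bulk samples, fewer cells expressing a gene and less RNA per cell cannot be told apart.

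The other urea cycle enzymes did not share the difference of CPS1. ASS1 (ENSG00000130707, chr9:130444961-130501274, plus strand), argininosuccinate synthase, stood at 2.07, 2.09 and 2.08 FPKM in control and at 2.29, 2.64 and 2.29 FPKM with PB. The FPKM ranges did not overlap, but the log2 fold change was 0.075 (SE 0.127) and the adjusted p of the edgeR fit did not pass. ASL (ENSG00000126522, chr7:66075800-66094697, plus strand), the lyase that releases arginine, had 3.88, 3.88 and 3.91 FPKM in control and 5.93, 5.90 and 6.36 FPKM with PB. Every PB sample lay above every control sample, with a log2 fold change of 0.51 (SE 0.062). The ratio of ASL to ASS1 FPKM was 1.87 ± 0.0122 in control and 2.53 ± 0.276 with PB (SD, n = 3). ARG2 (ENSG00000081181, chr14:67619920-67651708, plus strand) had 2.42, 3.14 and 2.53 FPKM in control and 3.36, 3.32 and 3.14 FPKM with PB. The groups overlapped at the second control sample, the control values varied by 14.4%, and the log2 fold change was 0.15 (SE 0.127). By mean FPKM, which takes no account of composition, ASS1, ASL and ARG2 were thus above their control level, in contrast to CPS1. Of these, only ASL passed on the adjusted p alone (edgeR). OTC, which joins carbamoyl phosphate to ornithine between CPS1 and ASS1, had at most 1 count in any sample.

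OAT (ENSG00000065154, chr10:124397303-124418976, minus strand), at the junction of the cycle with proline, had 27.37, 27.93 and 25.69 FPKM in control samples. With PB it had 23.41, 22.62 and 22.40 FPKM. The difference was small, but the groups did not overlap, and the log2 fold change was -0.37 (SE 0.039). The ratio of OAT to ARG2 FPKM was 10.12 ± 1.21 in control and 6.97 ± 0.160 with PB (SD, n = 3).

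In proline synthesis the members differed in direction. PYCR1 (ENSG00000183010, chr17:81932384-81942412, minus strand), a mitochondrial reductase of the last step, had 11.55, 11.49 and 12.47 FPKM in control and 26.70, 27.11 and 28.96 FPKM with PB. Even the lowest PB sample stood above the highest control sample by over the whole control range. The mean was 11.8 ± 0.549 FPKM in control and 27.6 ± 1.20 FPKM with PB (SD, n = 3), and the log2 fold change was 1.09 (SE 0.047). ALDH18A1 (ENSG00000059573, chr10:95605941-95656711, minus strand), the synthase that makes the intermediate from glutamate, had 22.73, 23.88 and 23.81 FPKM in control and 16.45, 16.32 and 16.79 FPKM with PB. It was lower in every PB sample, with a log2 fold change of -0.64 (SE 0.041). PYCR3 (ENSG00000104524, chr8:143603210-143609773, minus strand), the cytosolic reductase, had 1.54, 1.64 and 1.86 FPKM in control and 1.32, 0.95 and 1.02 FPKM with PB. It too was lower in every PB sample, with a log2 fold change of -0.76 (SE 0.144) at 59 to 161 counts per sample. Of the 3 members of the synthesis route, PYCR1 was thus higher, whereas ALDH18A1 and PYCR3 were lower. The ratio of PYCR1 to ALDH18A1 FPKM was 0.504 ± 0.0215 in control and 1.67 ± 0.0514 with PB (SD, n = 3).

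**Figure D2:**
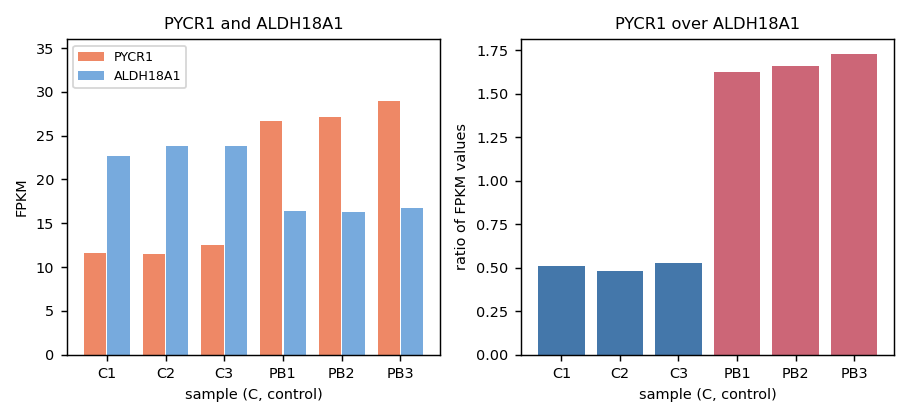
PYCR1 and ALDH18A1 by sample (C, control). The left panel gives the FPKM of each gene, with PYCR1 below ALDH18A1 in all control samples and above it in all PB samples, and the right panel gives the ratio of PYCR1 to ALDH18A1 FPKM, 0.481 to 0.524 in control and 1.62 to 1.73 with PB.

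PRODH (ENSG00000100033, chr22:18912777-18936553, minus strand), proline dehydrogenase, was near the limit of detection. It had 5, 1 and 6 counts in control samples and 0, 0 and 0 counts with PB. At a floor of 3 counts per library, its FPKM could be read down to 0.0157 to 0.0220, and the control values were 0.04, 0.01 and 0.03 FPKM. No fold is given, since 1 control sample was itself under the floor. ALDH4A1, which completes proline breakdown, rose slightly, by 0.20 on the log2 scale (SE 0.070), with 5.62 ± 0.492 FPKM in control and 7.14 ± 0.497 FPKM with PB (SD, n = 3).

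Because FPKM is a level per length, the members can be ranked within a group. In control samples the order was OAT, ALDH18A1, PYCR1, CPS1, ASL, ARG2, ASS1, PYCR3 and PRODH. With PB it was PYCR1, OAT, ALDH18A1, ASL, ARG2, ASS1, PYCR3, CPS1 and PRODH. Neighbours in either order did not overlap between their 3 values. CPS1 thus moved from rank 4 to rank 8 and PYCR1 from rank 3 to rank 1. When the level was divided by the longest coding transcript (GENCODE 29) in place of all exonic bases, CPS1 and PYCR1 changed places in control, at 18.96 and 17.94, and ASS1 and ARG2 changed places in both groups. The summed FPKM of the 9 members was 82.7 ± 1.24 in control and 80.0 ± 1.11 with PB (SD, n = 3). Without CPS1, which gave 12.1% of the sum in control samples, it was 72.7 ± 1.26 in control and 79.8 ± 1.08 with PB. Both sums are of FPKM, which takes no account of composition. With library size alone, the middle of all tested genes lay at 0.138 on the log2 scale, beside 0.011 with TMM. The higher sum without CPS1 can therefore not be told apart from this shift, and no rise of the other members is read from it.

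The other genes of these pathways were taken from 4 lists of 46 genes. Of the 40 tested, 4 were called, beside 12.1% of all tested genes. GOT1, the cytosolic aspartate aminotransferase, rose from 30.12, 29.21 and 30.56 FPKM to 77.91, 79.79 and 82.42 FPKM, with a log2 fold change of 1.28 (SE 0.034). AMD1, which makes the aminopropyl donor of polyamine synthesis, fell from 25.4 ± 0.372 to 11.5 ± 0.108 FPKM, with a log2 fold change of -1.28 (SE 0.030). AGMAT, a homologue of agmatinase, fell at a low level, from 12 to 26 counts per sample to 4 to 8 counts, with a log2 fold change of -1.79 (SE 0.403). GLUD2 fell from 23 to 31 counts per sample to 7 to 11 counts. GLUD2 is a near-identical retrocopy of GLUD1, so reads may be shared between the copies and its value is uncertain. Without the fold change line 11 of the 40 were higher and 22 lower by the adjusted p alone (edgeR), beside 24.1% higher and 26.1% lower of all tested genes.

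By list, the median log2 fold change was -0.14 for 11 tested partners of the urea cycle and arginine, 0.01 for 7 proline partners, -0.26 for 15 polyamine genes and -0.32 for 7 genes of glutamate and carbamoyl phosphate supply, beside 0.011 over all tested genes. Among the urea cycle and arginine partners, NAGS, which makes the activator of CPS1, rose by 0.69 on the log2 scale (SE 0.185) at 36 to 74 counts per sample. In the same list DDAH1, which clears methylated arginine, fell from 20.9 to 11.8 FPKM (log2 fold change -0.96, SE 0.041). L3HYPDH, a dehydratase of hydroxyproline, rose from 3.99 to 6.38 FPKM (0.54, SE 0.079), whereas P4HA3, a collagen prolyl hydroxylase, fell at a low level from 0.757 to 0.587 FPKM (-0.48, SE 0.201). The P4HA3 values of the groups overlapped, at 0.89, 0.70 and 0.68 FPKM in control and 0.57, 0.46 and 0.73 FPKM with PB. In the polyamine list 4 genes were higher and 8 lower without the fold change line, beside 24.1% and 26.1% of all tested genes. AZIN2, an activator of ornithine decarboxylase, rose from 0.570 to 1.04 FPKM (0.73, SE 0.121), and spermidine synthase SRM fell from 24.1 to 14.1 FPKM (-0.92, SE 0.056). GOT2, the mitochondrial counterpart of GOT1, fell from 42.9 to 24.5 FPKM (-0.94, SE 0.034). GLUD1 had a log2 fold change of -0.13, which was 0.002 with library size alone, and no other gene of these lists past the adjusted p turned its direction with that scaling. CAD, which makes carbamoyl phosphate for pyrimidines in the cytosol, had 15.38, 16.18 and 15.35 FPKM in control and 13.80, 13.05 and 14.14 FPKM with PB, and fell by 0.32 on the log2 scale (SE 0.034). The ratio of CAD to CPS1 FPKM was 1.56 ± 0.0471 in control and 50.3 ± 3.72 with PB (SD, n = 3).

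**Figure D3:**
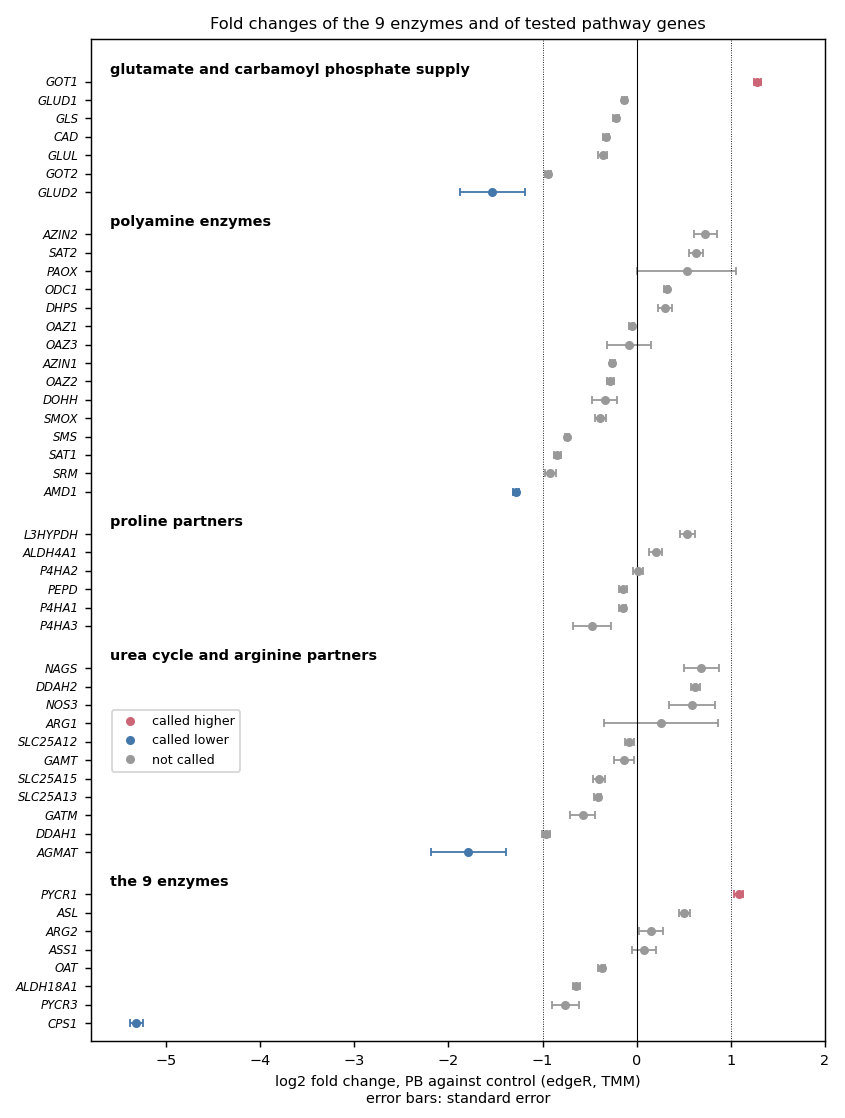
Log2 fold changes (PB against control, edgeR with TMM) of the 8 tested enzymes and of tested genes of the 4 pathway lists, with standard errors. Dotted lines mark -1 and 1; CPS1 lies at -5.32 and PYCR1 at 1.09 among the enzymes, and GOT1 (1.28), AMD1 (-1.28), AGMAT (-1.79) and GLUD2 (-1.53) lie past the lines among the lists.

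Of 10 regulators, 8 were tested and 3 were called, all higher, beside 12.1% called and 5.36% called higher of all tested genes. ATF4, the transcription factor named above, rose from 57.96, 61.24 and 57.63 FPKM to 150.43, 152.80 and 155.99 FPKM (log2 fold change 1.25, SE 0.027). DDIT3, a stress-induced partner of ATF4, rose from 9.93 to 181.4 FPKM (4.05, SE 0.046), and CEBPB rose from 7.83 to 27.6 FPKM (1.67, SE 0.063). CEBPA rose by 0.81 on the log2 scale (SE 0.207), and MYC fell from 22.1 to 17.4 FPKM (-0.48, SE 0.038). HNF4A, a factor of liver epithelium, lay under the filter and had 30, 29 and 35 counts in control samples and 0, 0 and 1 with PB. The part of these regulators in the members' values was not tested.

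Some markers of other cell types were lower together with CPS1, and others were not. CPS1 was among 213 genes whose mean FPKM was lower with PB by 10-fold or more and that reached 30 counts in each control sample. Together they held 0.566 to 0.569% of the counts of control samples and 0.00945 to 0.00967% of those of PB samples. In the other direction 22 genes met the same limits, and 48 of the 213, CPS1 included, kept more than 3 counts in every PB sample. Of 12 hepatocyte markers 5 were tested, 3 of them lower and 1 higher by the call rule, beside 6.73% lower and 5.36% higher of all tested genes. The filter takes the mean of all 6 samples, so FGA, FGB and FGG passed it only through their control values. FGA, the alpha chain of fibrinogen, had 76, 61 and 98 counts in control and 0 in each PB sample, and FGB had 54, 64 and 73 counts against 0 in each. In the same list CYP3A4 was called higher at 1 to 14 counts per sample, and SERPINA1 rose from 3.01 to 5.01 FPKM (0.60, SE 0.076). Defining markers of hepatocytes were near 0, since APOB and TTR had 0 counts in all 6 samples and ALB had at most 4. The summed FPKM of the hepatocyte list was 5.99 to 6.02 in control and 5.00 to 5.52 with PB, most of it SERPINA1 in the PB samples.

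Of 12 luminal epithelial markers all were tested, 7 of them lower and 1 higher (ESRP1) by the call rule. Of all tested genes, 6.73% were lower and 5.36% higher. CDH1, ELF3 and EHF passed the filter only through their control values. The summed FPKM of the 12 luminal markers was 441.5 to 448.6 in control and 160.8 to 166.1 with PB. Most of it was KRT18, which fell from 285.5 to 120.6 FPKM, and KRT8, which fell from 107.3 to 38.9 FPKM. KRT7, a keratin of simple epithelium, fell from 44.5 to 0.440 FPKM. None of 7 small intestine markers reached the filter, and their summed FPKM was at most 0.16 in any sample. Of 8 lung epithelial markers 2 were tested and 0 called by edgeR, beside 12.1% of all tested genes. On the adjusted p alone (edgeR) 1 passed, beside 50.2% of all tested genes. The summed FPKM of this list was 2.18 to 2.74 in control and 3.32 to 4.11 with PB. The 8 mesenchymal markers summed to 1072 to 1098 FPKM in control and 991 to 994.3 FPKM with PB. S100A4, FN1 and CAV1 were lower by the call rule, beside 6.73% lower of all tested genes. The part of any of these lists in the value of CPS1 was not tested.

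**Figure D4:**
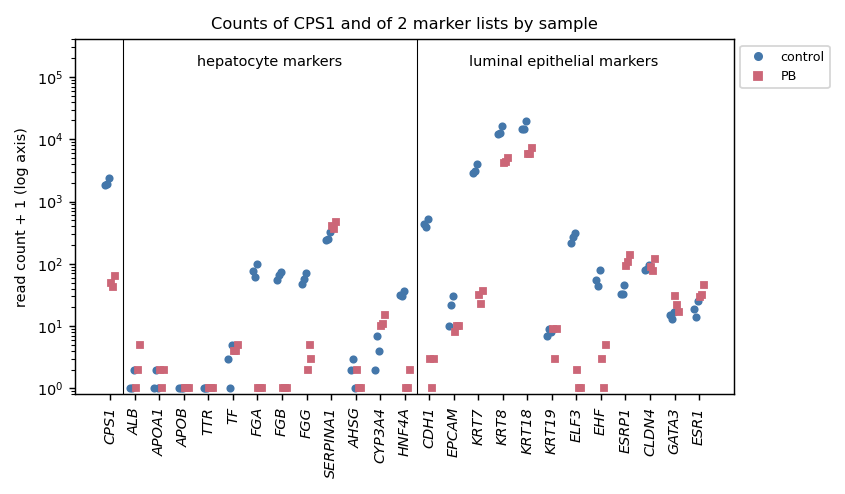
Read counts plus 1 (log axis) of CPS1 and of the hepatocyte and luminal epithelial markers in each sample, with control as circles and PB as squares. FGA and FGB, like CPS1, stand apart between groups, FGA and FGB with 0 counts in the PB samples, while APOB and TTR are at 0 in all 6 samples. HNF4A and CDH1 show the same separation. In the other direction, SERPINA1, CYP3A4, ESRP1 and ESR1 stand higher in the PB samples, and EPCAM, KRT19, CLDN4 and GATA3 overlap between groups.

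The genes whose profiles over the 6 samples were nearest to CPS1 and PYCR1 were taken by Euclidean distance of centred log2(FPKM + 0.1) values among 12456 genes at a mean FPKM of 1 or more. For CPS1 they were LINC02582, SUSD2, GABRA5, GPX1 and IGFBP3. IGFBP3, a binding protein of insulin-like growth factors, had 19.6 FPKM in control and 0.757 FPKM with PB, and the antioxidant enzyme GPX1 had 7.63 and 0.217 FPKM. For PYCR1 the nearest genes were PRAF2, MAFG, GTF2IP20, DNAJB2 and NAB2. MAFG, a small Maf transcription factor, lies 4648 bases from PYCR1 and went from 10.2 to 23.1 FPKM. Near profiles in 6 samples of 2 groups share the group difference and little else. Flanking genes within 100 kb were then listed, a choice made after these profiles had been seen. Near PYCR1 there were 14 genes at a mean FPKM of 1 or more. Of these, MAFG was called higher and LRRC45, CENPX and ALYREF lower, beside 5.36% higher and 6.73% lower of all tested genes. Near CPS1 there was 1, LANCL1, with 29 bases between the listed coordinates of the 2 genes. It had 32.6 FPKM in control and 29.2 FPKM with PB (log2 fold change -0.29, SE 0.031). LANCL1 was thus lower too and passed on the adjusted p alone (edgeR), but its difference was far smaller than that of CPS1.

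Reads shared with overlapping genes or copies were checked, since the strandedness of the counting is not stated. Of 12 rows that overlap a member, 4 were tested, and of 15 pseudogene copies 2 were tested. None of these 6 was called by edgeR, beside 12.1% of all tested genes, and 2 passed on the adjusted p alone, beside 50.2%. By limma on log2(FPKM + 0.1) 1 was called. VTI1B overlaps ARG2 by 4624 bases on the other strand and had 27.0 FPKM in control and 28.0 FPKM with PB, far above the level of ARG2, so the value of ARG2 is uncertain. TIGD5 overlaps PYCR3 by 15 bases on the other strand and had a log2 fold change of -0.67 (SE 0.164). The 14 copies of ASS1 had at most 4 counts in any sample, ASS1P2 among them, and the ASL copy ASLP1 had at most 11. ENSG00000249319, a row within ASL, had at most 8 counts, and DGCR6, beside PRODH, at most 16. Rows overlapping CPS1 had at most 2 counts, and those overlapping PYCR1 at most 3.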

How the data were processed

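Poly(A) RNA of 3 control and 3 PB-treated MDA-MB-231 samples was sequenced, and samples were grouped by their titles. The authors deposited raw read counts per gene, which were taken unchanged. The FPKM values deposited beside them equalled, within 0.005, each count divided by exonic length and by the total of the sample (100% of values), so that FPKM takes no account of composition. The submitters' processing notes name HTSeq 0.6.1, Cufflinks 2.2.1, DESeq2 and hg38 with no role given. The aligner and the strandedness are not given in the sources used here. Columns of the authors' own comparison were not used, and 0 columns of per-sample values were left unmatched.

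The 24200 genes at a mean FPKM of 0.1 or more were tested with edgeR 4.0.16 (R 4.3.3), using TMM factors (0.948 to 0.962 in control, 1.04 to 1.05 with PB), the quasi-likelihood test and Benjamini-Hochberg adjustment. TMM lowered the median log2 fold change by 0.127 against library size alone. "Rose" and "fell" are used for genes outside the 9 members whose adjusted p passed. Replicates differed by more than sampling noise (chi-square per degree of freedom 1.45 to 1.92). DESeq2 1.42.0 and limma 3.58.1 were alternatives.

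The 9 members and all gene lists were chosen with earlier results of these data known. Named genes were the members, the called genes of the pathway and regulator lists, the largest not called on each side of each list, overlapping or copy rows that passed the filter, and the 5 nearest profiles to CPS1 and to PYCR1. ALDH4A1, CAD, OTC, GLUD1 and the genes named beside CPS1 were added for their place in the pathway or after their values were seen. Some genes of the lists are counted but not reported by name here.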

Additional observations from a re-analysis of the deposited data

How the results depend on the processing

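CPS1 and PYCR1 stayed called, in the same direction, under every alternative filter, tool, scaling, replicate block and omission of 1 sample. PYCR1 lay close to the line of 1, however. Its log2 fold change was 1.09 in the main fit (SE 0.047), 1.04 without ParishinB-3 and 1.22 with library size alone. A line at a log2 fold change of 2 left 1 member called (CPS1), and without a line there were 6. Without the filter on low values 3 were called, PRODH being added. For all genes, against 2925 called, there were 1377 with a mean FPKM of at least 1, 825 with limma on log2(FPKM + 1), 886 with a line at 2 and 12151 without a line. For the pathway lists, against 4 called, there were 2 with a mean FPKM of at least 1, 2 with limma on log2(FPKM + 1), 0 with a line at 2 and 33 without a line (edgeR; 33 had an adjusted p of at most 0.05). For overlapping rows and copies, against 0 called, there was 1 with limma on log2(FPKM + 0.1) and there were 2 without a line. Leaving out each sample in turn gave 2784 to 2849 genes. CPS1 had a log2 fold change of -3.11 with limma on log2(FPKM + 1), since a pseudocount of 1 exceeds its PB level. Deviations of same-numbered samples from their group means correlated at -0.152, 0.0746 and -0.125 over 13067 genes, and those of other pairs at -0.130 to 0.225. With 3 samples per group these values cannot settle whether same-numbered samples shared a batch. With the replicate block 2753 genes were called. With at most 6 counts per sample, the size of the difference of PRODH cannot be read at this depth.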
